A study of Ovis aries with 6 samples.

Results

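The genes RSPO3, LGR4, LGR5, LGR6, ZNRF3, RNF43, AXIN2, LEF1 and TCF7, which make up the R-spondin signal and the canonical Wnt response, were followed through single-nucleus RNA data from the sheep rumen. They were chosen by symbol, and all 9 were found among the 26741 genes of the deposited matrices. Epithelial tissue was taken after slaughter from the ventral sac of the rumen in 6 male lambs, and each lamb gave 1 droplet library. The treatment label is MGHS for 3 lambs and MGNS for the other 3, and what these letters stand for is not explained there, nor were age and breed found. Tissue of both groups had been washed, cut into small pieces and frozen, and nuclei rather than whole cells were isolated, so the counts are of nuclear RNA.

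R-spondins are secreted proteins that bind the receptors LGR4, LGR5 and LGR6. The bound pair takes hold of ZNRF3 and RNF43, membrane ubiquitin ligases that otherwise remove Frizzled receptors from the cell surface, and so makes a cell more sensitive to Wnt ligands. Wnt binding stabilises β-catenin, which pairs in the nucleus with factors of the LEF1 and TCF7 family, and AXIN2 is a common target that feeds back on the pathway. In stratified epithelia the pathway is known for its part in basal cell renewal. In T cells, LEF1 and TCF7 are known as factors of naive and memory cells.

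The files held 34418856 to 59997793 UMIs per library, and 41822 nuclei were retained, 4830 to 10201 per animal. Clustering without the 9 genes gave 22 clusters, which were named from marker lists where the markers allowed it and otherwise kept by number. Keratinocyte-like nuclei made up 36.6 ± 5.96% of nuclei in MGHS animals and 29.7 ± 2.44% in MGNS animals (SD, n = 3 each), so libraries labelled as rumen epithelium also held stromal and immune nuclei. These shares leave out unnamed cluster 8, which had KRTDAP, PI3 and KRT36 among its leading genes, a median of 583 UMIs per nucleus and 5260 nuclei. It made up 15.97 ± 13.6% of nuclei in MGHS animals and 5.56 ± 1.31% in MGNS animals (SD, n = 3 each). The MGHS mean rests largely on MGHS 3, with 3230 of these nuclei. The share was 8.84%, 7.42% and 31.7% in MGHS 1 to 3 and 6.79%, 5.71% and 4.18% in MGNS 1 to 3. Each pair of libraries shared 19 to 49 barcodes, 0.237% to 0.524% of the smaller library's barcodes. Levels are in CPM, the usual scaling of a gene's UMIs by all UMIs, here summed over an animal's nuclei of a set. Differences are log2 fold changes of MGHS over MGNS with their standard error (SE), and adjusted p-values come from edgeR's quasi-likelihood test over all genes of a set with Benjamini-Hochberg adjustment. CPM is not scaled by gene length, so levels are compared between sets of nuclei and not between genes.

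**Figure D1:**
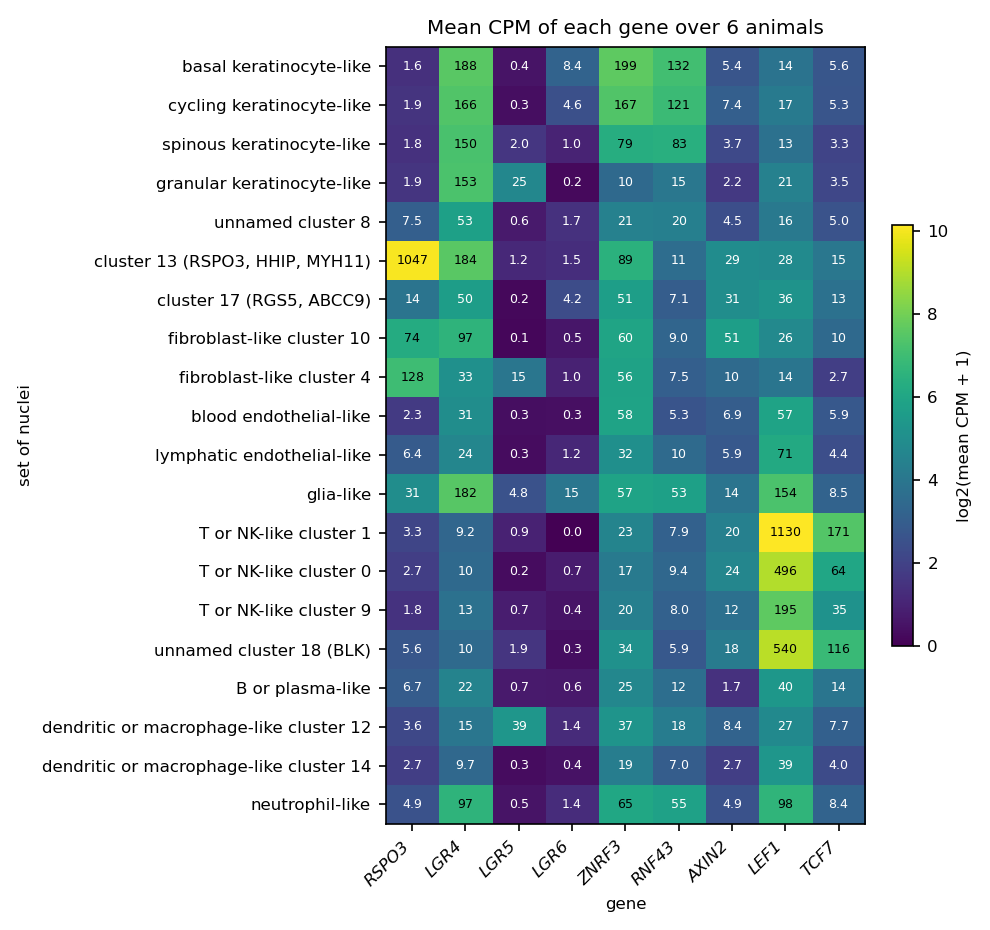
Heat map of the mean CPM over 6 animals (number in each cell, colour on a log2 scale with 1 CPM added) for the 9 genes in columns and 20 sets of nuclei in rows. RSPO3 stands at 1046.5 CPM in cluster 13, LGR4, ZNRF3 and RNF43 are high in the basal row, and LEF1 and TCF7 are high in the rows of clusters 1, 0, 9 and 18.

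RSPO3, the ligand, was read mainly from cluster 13, a stromal cluster that is kept by number here. HHIP, an inhibitor of Hedgehog ligands, and the smooth muscle genes ACTG2 and MYH11 led that cluster together with RSPO3 itself. Of 12 smooth muscle or pericyte markers, 8 were at least 2-fold above the mean of the other clusters, and of 8 subepithelial myofibroblast markers, a list that holds RSPO3, 5 were. Of 10 fibroblast markers 6 were as well. The mean log2 ratio was 2.30 for the smooth muscle or pericyte list, 2.43 for the myofibroblast list and 0.72 for the fibroblast list. The first 10 genes of the cluster held 3 of the myofibroblast list (HHIP, RSPO3 and MYH11) and 2 of the smooth muscle or pericyte list (MYH11 and ACTG2). RSPO3 stood at 969, 1125 and 1242 CPM there in MGHS 1 to 3 and at 799, 789 and 1356 CPM in MGNS 1 to 3. The highest animal was MGNS 3, and the groups overlapped. Cluster 13 held 78.1 ± 2.22% of an animal's RSPO3 UMIs in MGHS and 82.9 ± 4.98% in MGNS (SD, n = 3 each), from 4.87 ± 0.67% and 3.47 ± 1.17% of nuclei. At least 1 RSPO3 UMI was found in 70.2 ± 7.87% of its nuclei, at a median of 3669 UMIs per nucleus. The same share was 1.20 ± 0.57% in basal keratinocyte-like nuclei, which are not known to make RSPO3 and had a median of 7070.5 UMIs. After thinning each nucleus to 1000 UMIs the shares were 49.8 ± 9.12% in cluster 13 and 0.27 ± 0.13% in basal keratinocyte-like nuclei (SD, n = 6).

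Fibroblast-like nuclei were the second source, and the remaining stroma had little. Cluster 4, led by SCARA5, C7 and the Wnt inhibitor DKK2, averaged 128 ± 54.6 CPM of RSPO3, and cluster 10, led by PDGFRA, LAMA2 and TWIST2, averaged 73.7 ± 34.8 CPM (SD, n = 6). Cluster 4 lay above cluster 10 in 5 of 6 animals, and cluster 13 lay above both in 6 of 6. Cluster 17, a smooth muscle or pericyte-like cluster with the pericyte genes RGS5 and ABCC9 among its leading genes, had 14.2 ± 14.5 CPM of RSPO3. The level in cluster 13 was 127-fold that in cluster 17 (geometric mean of 6 animals, 32.7-fold to 628-fold) and 12.7-fold that of all fibroblast-like nuclei (7.95-fold to 22.2-fold). Basal keratinocyte-like and T or NK-like nuclei averaged 1.64 ± 0.70 and 2.72 ± 2.71 CPM of RSPO3. Barcodes with under 300 genes, which were left out, held 21.2 to 39.9 CPM of RSPO3 in MGHS and 13.7 to 31.65 CPM in MGNS libraries. The part of free RNA in the low RSPO3 levels was not tested. Across the means of the 22 clusters, the 5 genes whose levels followed RSPO3 most closely were ISM1 (Pearson r = 0.96), GREM1 (0.95), PTGER3 (0.95), GAS1 (0.94) and PTGIS (0.94), among 12664 genes that reached 20 CPM in a cluster. The clusters share libraries, so these correlations describe the pattern and carry no test. GREM1 encodes a secreted BMP antagonist, and PTGER3 encodes a prostaglandin receptor.

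**Figure D2:**
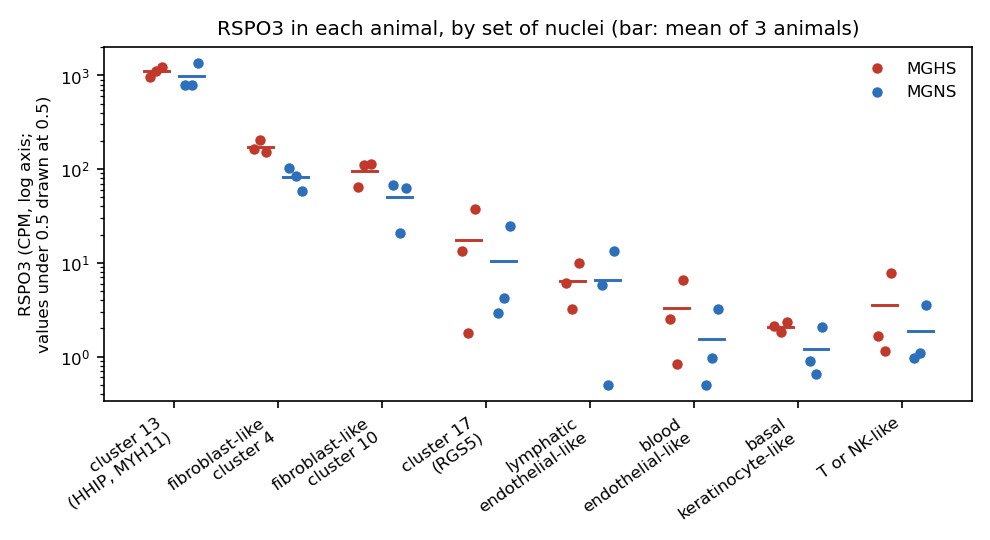
RSPO3 level in CPM on a log axis for each animal in 8 sets of nuclei, with MGHS animals in red at the left, MGNS animals in blue at the right and a bar at the mean of 3. All animals exceed 700 CPM in cluster 13, and in fibroblast-like cluster 4 the MGHS animals (151 to 205 CPM) lie above the MGNS animals (59.0 to 104 CPM).

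RSPO3 differed between the groups without overlap in fibroblast-like nuclei, and the difference did not pass the adjusted test. Its mean was lower in MGHS in 3 of 15 classes and unnamed clusters with at least 20 nuclei per animal. In spinous keratinocyte-like nuclei MGHS also lay higher without overlap, and RSPO3 had too few UMIs to be tested. There 20.2% of all tested genes did not overlap. Its fold change was 0.91 ± 0.52 in basal keratinocyte-like nuclei and 0.78 ± 0.36 over all nuclei (SE, edgeR adjusted p = 0.457 and 0.281), with overlap. Fibroblast-like nuclei had 93.5, 141 and 121 CPM in MGHS 1 to 3 and 76.8, 36.0 and 61.2 CPM in MGNS 1 to 3. The fold change was 1.05 ± 0.28 (SE; edgeR adjusted p = 0.222). RSPO3 and LGR5 were the 2 of 8 tested members without overlap in these nuclei, where 19.5% of all tested genes did not overlap and edgeR called 0.0727% of genes. edgeR, DESeq2 and limma called 0 of the 8 members there, and 3 had an unadjusted p under 0.05, as had 12.6% of all genes. In cluster 4 alone the values were 163, 205 and 151 CPM in MGHS and 104, 84.3 and 59.0 CPM in MGNS, a fold change of 1.14 ± 0.25 (SE; edgeR adjusted p = 0.109). DESeq2 gave an adjusted p of 0.0402 for RSPO3 from the same counts, and edgeR without a filter on low counts gave 0.00752. Of all genes in cluster 4 DESeq2 called 1.43%, and edgeR without the filter called 359 of 19723. In cluster 4 the groups did not overlap for 17.5% of all tested genes and edgeR called 0.196%, against 3 of 4 tested members without overlap (RSPO3, LGR5 and ZNRF3) and 0 called. In cluster 10 the groups overlapped, with 64.9, 112 and 113 CPM in MGHS and 68.4, 20.6 and 62.99 CPM in MGNS. Cluster 13, which held most RSPO3 UMIs, had a fold change of 0.20 ± 0.29 (SE; edgeR adjusted p = 0.845). The summed level of the 10 fibroblast markers in cluster 4, none of them at 0, also differed, at 20249 to 26515 CPM in MGHS and 13503 to 14841 CPM in MGNS. By mean level 5 of the 10 markers were higher and 5 lower in MGHS, and the part of this difference in the RSPO3 values was not tested.

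The receptor LGR4 was read at a like level through all keratinocyte-like layers. Its mean was 188 ± 30.3 CPM in basal, 166 ± 31.4 in cycling, 150.5 ± 37.6 in spinous and 153 ± 49.1 CPM in granular keratinocyte-like nuclei (SD, n = 6). Basal nuclei lay above spinous nuclei in 6 of 6 animals and above granular nuclei in 5 of 6, and the basal level was 1.26-fold the spinous one (1.07-fold to 1.71-fold). LGR4 was about as high in the RSPO3-rich cluster 13 (184 ± 23.0 CPM), which lay above basal nuclei in 3 of 6 animals. Glia-like nuclei had 182 ± 58.5 CPM, from only 3 to 29 UMIs per animal. At a median of 437 UMIs per nucleus they also had 3 of 10 basal keratinocyte markers at least 2-fold above the other clusters. The mean log2 ratio of that list was 0.60, and the part of keratinocyte RNA in the glia-like LGR4 level was not tested. T or NK-like nuclei had 10.8 ± 2.61 CPM. At least 1 LGR4 UMI was found in 58.5 ± 4.60% of basal keratinocyte-like nuclei and in 2.77 ± 0.61% of T or NK-like nuclei, and after thinning to 1000 UMIs the shares were 16.1 ± 2.12% and 0.85 ± 0.48% (SD, n = 6). The gene nearest to LGR4 in pattern over the 22 clusters was LMO7 (Pearson r = 0.92, no test), followed by EPHA4 (0.92), LOC132658163 (0.90), F3 (0.90) and SLC25A21 (0.89).

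The ligases ZNRF3 and RNF43 had, among the keratinocyte-like layers, their highest mean in basal nuclei and their lowest in granular nuclei. ZNRF3 averaged 199 ± 43.6 CPM in basal, 167 ± 35.4 in cycling, 78.9 ± 28.7 in spinous and 10.0 ± 3.30 CPM in granular keratinocyte-like nuclei (SD, n = 6). Each of these 4 levels lay above the next in 6 of 6 animals, and the basal level was 20.7-fold the granular one (12.1-fold to 47.6-fold). RNF43 averaged 132 ± 29.9, 121 ± 20.8, 82.8 ± 20.6 and 15.1 ± 5.20 CPM in the same order, 9.06-fold more in basal than in granular nuclei (6.42-fold to 12.9-fold). Basal and cycling nuclei did not separate for RNF43, with basal the higher in 5 of 6 animals. RNF43 averaged 8.25 ± 3.52 CPM in fibroblast-like and 8.52 ± 3.41 CPM in T or NK-like nuclei. It was also read in neutrophil-like nuclei (55.1 ± 10.9 CPM, 109 UMIs in all) and in glia-like nuclei (53.0 ± 43.1 CPM, 21 UMIs in all). The basal keratinocyte list had a mean log2 ratio of 0.50 in neutrophil-like and 0.60 in glia-like nuclei. Their medians were 765 and 437 UMIs per nucleus. The part of keratinocyte RNA in these RNF43 values was not tested. ZNRF3 averaged 88.9 ± 15.4 CPM in cluster 13 and 59.0 ± 12.2 CPM in fibroblast-like nuclei. Basal keratinocyte-like nuclei held 44.1 ± 6.89% of an animal's ZNRF3 UMIs and 43.8 ± 6.55% of its RNF43 UMIs (SD, n = 6).

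The other LGR receptors were read at opposite ends of the epithelium. LGR6, known from mouse skin as a gene of stem cells, was read at 8.43 ± 0.75 CPM in basal, 4.63 ± 1.37 in cycling, 1.03 ± 0.39 in spinous and 0.19 ± 0.18 CPM in granular keratinocyte-like nuclei. Basal nuclei held 60.7 ± 7.31% of an animal's LGR6 UMIs, and the basal level was above the cycling and the spinous level in 6 of 6 animals (8.74-fold above spinous). Glia-like nuclei had a higher mean, 14.8 ± 23.2 CPM, from 2 UMIs in each of 2 animals and none in the other 4. The part of keratinocyte RNA in that mean was not tested. LGR5, known from the mouse intestine as a marker of crypt stem cells, ran the other way, with 0.44 ± 0.27 CPM in basal and 24.9 ± 10.2 CPM in granular keratinocyte-like nuclei (SD, n = 6), and the granular level was higher in 6 of 6 animals. LGR5 had 19.8, 26.1 and 36.7 CPM in granular nuclei of MGHS 1 to 3 and 22.7, 9.21 and 34.8 CPM in MGNS 1 to 3, so the groups overlapped. A UMI of LGR5 was found in 15.6 ± 5.34% of granular nuclei, at a median of 8772 UMIs, and in 0.30 ± 0.17% of basal nuclei. After thinning the shares were 2.14 ± 0.86% and 0.09 ± 0.10% (SD, n = 6). The counts behind these levels are small. The 6 granular sums held 23 to 274 LGR5 UMIs each, and LGR6 had 519 UMIs in all 41822 nuclei.

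LGR5 was also read in 2 non-epithelial clusters. Cluster 12, a macrophage or dendritic-like cluster with CD83, CCL22, CCR7 and CD207 among its leading genes, had 9.21, 109 and 12.3 CPM in MGHS 1 to 3 and 13.2, 39.1 and 52.2 CPM in MGNS 1 to 3. Few nuclei carried these levels. The 7, 138 and 15 UMIs in MGHS 1 to 3 came from 3, 19 and 8 nuclei, and the 11, 66 and 86 UMIs in MGNS 1 to 3 came from 1, 11 and 8 nuclei, of 127 to 317 nuclei per animal. MGHS 2 stood above the other 5 animals, and the groups overlapped. Fibroblast-like cluster 4 had 24.0, 15.3 and 31.2 CPM of LGR5 in MGHS and 7.67, 3.92 and 7.48 CPM in MGNS, from 2 to 20 UMIs per animal. The groups did not overlap there, and the fold change of 1.85 ± 0.46 did not pass the test (SE; edgeR adjusted p = 0.151). Barcodes with under 300 genes held 3.69 to 9.28 CPM of LGR5 in MGHS and 1.59 to 5.47 CPM in MGNS libraries. The part of free RNA in the cluster 4 values was not tested. Over all fibroblast-like nuclei the LGR5 fold change was 1.56 ± 0.48 (SE; edgeR adjusted p = 0.265). Cluster 10, the other fibroblast-like cluster, held 2 LGR5 UMIs in its 2217 nuclei.

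**Figure D3:**
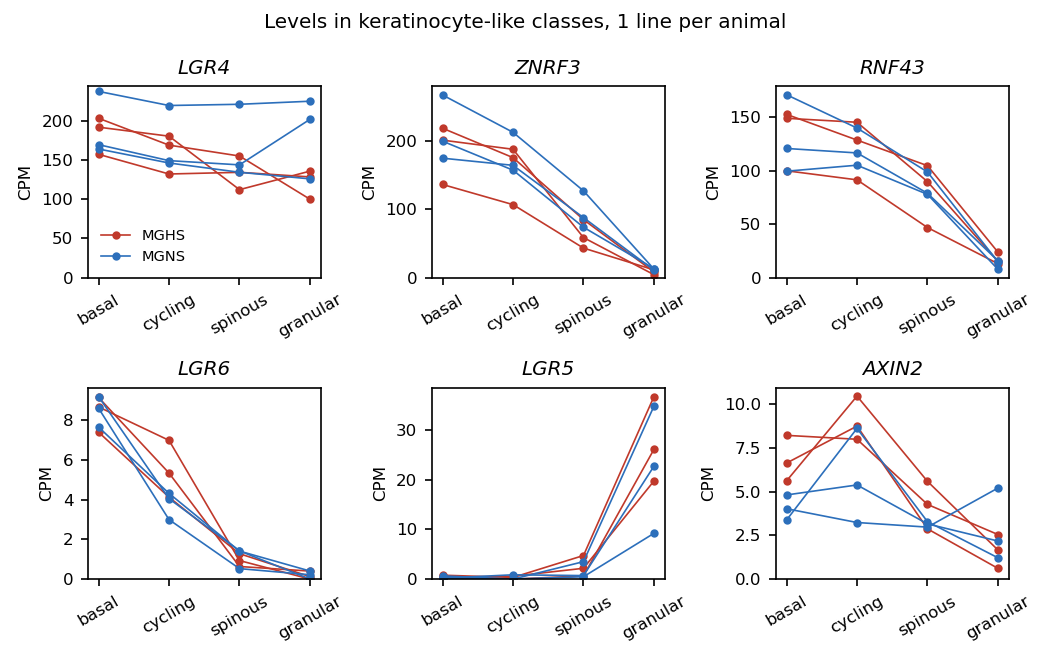
Level in CPM of 6 genes in basal, cycling, spinous and granular keratinocyte-like nuclei, with 1 line per animal, MGHS in red and MGNS in blue, and linear axes that start at 0. ZNRF3, RNF43 and LGR6 are lower in granular than in basal nuclei in 6 of 6 animals, LGR4 stays between 100.2 and 238 CPM, and LGR5 is highest in granular nuclei.

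AXIN2, the feedback target, was highest in stroma and low in the epithelium. Fibroblast-like cluster 10 had 50.7 ± 9.34 CPM, followed by clusters 17 and 13 with 30.7 ± 9.79 and 29.1 ± 10.6 CPM (SD, n = 6). Cluster 10 lay above cluster 17 in 6 of 6 animals, while clusters 17 and 13 changed places between animals, 3 against 3. The T or NK-like clusters 0 and 1 had 24.1 ± 4.74 and 20.1 ± 3.10 CPM of AXIN2. Cluster 4, which had more RSPO3 than cluster 10, had 10.4 ± 4.56 CPM of AXIN2, below cluster 10 in 6 of 6 animals. Basal, cycling, spinous and granular keratinocyte-like nuclei averaged 5.45 ± 1.78, 7.41 ± 2.63, 3.69 ± 1.06 and 2.24 ± 1.61 CPM (SD, n = 6). Barcodes with under 300 genes, which were left out, are set beside these levels, and whether they hold free RNA or poor nuclei was not tested. They held 9.38 to 13.3 CPM of AXIN2 in MGHS libraries and 12.7 to 17.5 CPM in MGNS libraries. No keratinocyte-like level of an animal exceeded the value of its own library. The genes nearest to AXIN2 in pattern were SMARCD3 (Pearson r = 0.86 over 22 clusters, no test), TUSC3 (0.84), VOPP1 (0.83), RORA (0.82) and ZBTB4 (0.81).

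The transcription factors LEF1 and TCF7 were read mainly from lymphocytes. T or NK-like nuclei held 73.0 ± 3.15% of an animal's LEF1 UMIs and 58.7 ± 7.32% of its TCF7 UMIs (SD, n = 6). Cluster 1, a T or NK-like cluster with CD4, CD28 and THEMIS among its leading genes along with both members, averaged 1129.8 ± 317 CPM of LEF1 and 171 ± 37.7 CPM of TCF7. It exceeded cluster 0, led by IL22, IL17F and IL17A, 2.29-fold for LEF1 and 2.72-fold for TCF7, and cluster 9, led by the cytotoxic genes GNLY, KLRK1 and PRF1, 6.10-fold and 5.14-fold, each in 6 of 6 animals. Cluster 18, led by the kinase gene BLK and left unnamed, had 540.5 ± 203 CPM of LEF1 and 116 ± 36.1 CPM of TCF7, above cluster 0 in 4 of 6 animals for LEF1 and in 6 of 6 for TCF7. A LEF1 UMI was found in 64.0 ± 6.86% of cluster 1 nuclei at a median of 2674 UMIs, and in 4.10 ± 3.24% of basal keratinocyte-like nuclei at a median of 7070.5 UMIs. After thinning to 1000 UMIs the shares were 49.9 ± 6.74% and 0.84 ± 0.59% (SD, n = 6). SIDT1 (Pearson r = 0.97), TAFA2 (0.96), GRAP2 (0.95) and the T cell gene CD3E (0.95) were among the genes that followed LEF1 most closely over the 22 clusters, a description without a test.

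LEF1 had a lower mean in MGHS than in MGNS animals in clusters 0, 1, 9 and 18, and the difference in cluster 9 passed the test. Cluster 9 was among the clusters fitted after the data had been seen. In cluster 9, LEF1 stood at 148, 118 and 101 CPM in MGHS 1 to 3 and at 302, 241 and 260.4 CPM in MGNS 1 to 3. All MGHS animals lay below all MGNS animals, and LEF1 fell by 1.14 ± 0.19 on the log2 scale (SE; edgeR adjusted p = 0.0441). DESeq2 and limma also called it, with adjusted p of 0.00222 and 0.0380, among 0.652% and 0.188% of all genes. The call was lost whenever any single animal was left out, with adjusted p of 0.0508 to 0.225 and fold changes of -1.283 to -1.002. In cluster 9, 15 of 7980 genes were called (0.188%) and the groups did not overlap for 13.8% of genes, against 1 and 2 of the 4 tested members. TCF7 in cluster 9 was 23.4, 18.7 and 25.3 CPM in MGHS and 60.3, 45.6 and 38.7 CPM in MGNS, also without overlap, with a fold change of -1.11 ± 0.29 (SE; edgeR adjusted p = 0.205). The summed T or NK markers overlapped between the groups in cluster 9, at 4015 to 4681 CPM in MGHS and 4524 to 4664 CPM in MGNS, with 9 of 11 markers in the files and none at 0. The summed macrophage or dendritic markers did not overlap, at 67.7 to 97.6 CPM in MGHS and 107 to 166 CPM in MGNS (10 of 11 in the files, none at 0, 9 of 10 lower in MGHS by mean), and their part in the LEF1 difference was not tested. Barcodes with under 300 genes also held less LEF1 in MGHS (23.9 to 27.0 CPM) than in MGNS (72.1 to 87.7 CPM). The part of free lymphocyte RNA in the cluster 9 values was not tested.

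In clusters 1, 0 and 18 LEF1 differed in the same direction without passing. Cluster 1 had 924, 810.5 and 920.5 CPM in MGHS 1 to 3 and 1291, 1168 and 1665 CPM in MGNS 1 to 3, a fold change of -0.68 ± 0.18 (SE; edgeR adjusted p = 0.454). Cluster 0 had 426, 433 and 310.2 CPM in MGHS and 717, 485 and 608 CPM in MGNS, with -0.62 ± 0.22 (SE; edgeR adjusted p = 0.828). Cluster 18 had 541, 283 and 316 CPM in MGHS and 617, 721 and 765 CPM in MGNS, with -0.97 ± 0.22 (SE; edgeR adjusted p = 0.161). DESeq2 called LEF1 in cluster 18 with an adjusted p of 0.0405, among 0.339% of all genes there. The groups did not overlap for LEF1 in any of these 3 clusters, where 11.5% (cluster 1), 10.4% (cluster 0) and 12.7% (cluster 18) of all tested genes did not overlap. Without a filter on low counts edgeR called LEF1 in cluster 1 (adjusted p = 0.00663), in cluster 18 (0.000261) and over all T or NK-like nuclei (0.00554), and TCF7 in cluster 9 (0.0393). That setting called more genes in general, 108 of 20334 in cluster 1 and 111 of 17922 in cluster 18. It called 110 of 22274 in T or NK-like nuclei and 258 of 19435 in cluster 9. With the filter edgeR called 0%, 0.0103% and 0% of genes in clusters 1, 0 and 18 and 0 of the 5, 6 and 3 tested members. TCF7 overlapped between the groups in cluster 1, with 207, 116 and 165 CPM in MGHS and 176, 144 and 216 CPM in MGNS. It did not overlap in cluster 0 (44.95 to 55.5 CPM in MGHS, 58.2 to 99.9 CPM in MGNS) or in cluster 18 (76.3 to 110.4 CPM in MGHS, 128 to 168 CPM in MGNS), with edgeR adjusted p of 0.868 and 0.475.

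**Figure D4:**
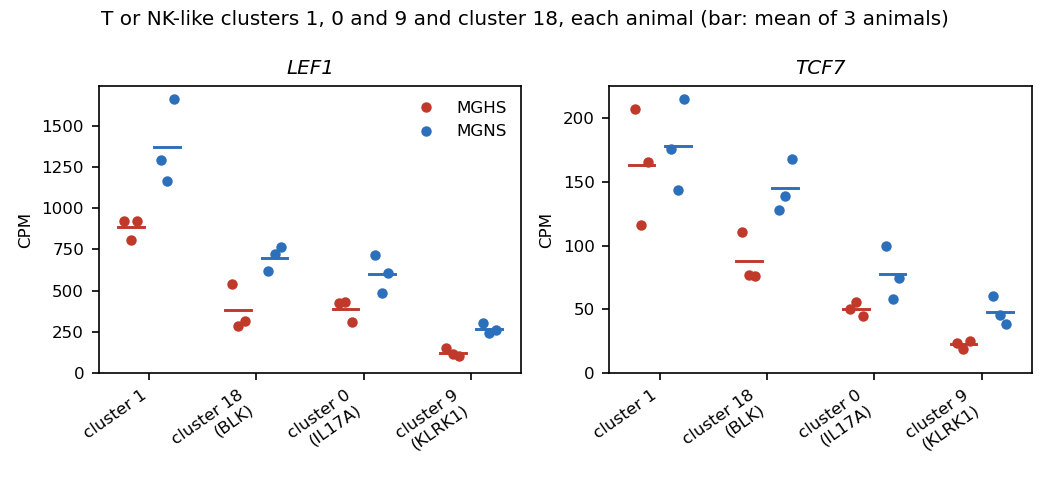
LEF1 (left) and TCF7 (right) in CPM for each animal in clusters 1, 18, 0 and 9, with MGHS in red left of MGNS in blue, a bar at the mean of 3 animals and axes that start at 0. For LEF1 every MGHS point lies below every MGNS point of the same cluster, and for TCF7 the groups overlap in cluster 1.

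Over all T or NK-like nuclei both genes were lower in MGHS without passing the test, and the makeup of the class moved with them. The part of that makeup in the difference was not tested beyond the equal weights given here. LEF1 had 488, 425 and 434 CPM in MGHS 1 to 3 and 858, 798 and 899 CPM in MGNS 1 to 3, a fold change of -0.96 ± 0.16 (SE; edgeR adjusted p = 0.248). TCF7 had 77.4, 57.9 and 75.8 CPM in MGHS and 122, 102 and 116 CPM in MGNS, with -0.72 ± 0.16 (SE; edgeR adjusted p = 0.361). Neither gene's groups overlapped. edgeR called 0 of the 6 tested members in this class, 2 had an unadjusted p under 0.05, DESeq2 called LEF1 (adjusted p = 2.18e-05) and limma called none. Of all genes tested in the class edgeR called 0.0085% and DESeq2 0.689%, 7.02% had an unadjusted p under 0.05 and 11.7% did not overlap. Cluster 1 made up 20.1%, 19.98% and 32.0% of T or NK-like nuclei in MGHS 1 to 3 and 43.2%, 56.6% and 32.8% in MGNS 1 to 3, and cluster 0 made up 32.6% to 66.6% in MGHS and 14.9% to 44.4% in MGNS. When clusters 0, 1 and 9 were given equal weight in each animal, LEF1 averaged 466 ± 29.6 CPM in MGHS and 748 ± 108 CPM in MGNS (SD, n = 3 each; log2 ratio -0.68, two-sided exact permutation p = 0.1). TCF7 averaged 78.5 ± 15.04 CPM in MGHS and 101 ± 16.4 CPM in MGNS (SD, n = 3 each; log2 ratio -0.37, two-sided exact permutation p = 0.2). With 3 animals against 3 that test cannot give a p under 0.1. Cluster 1 was 3.44 ± 0.63% of all nuclei in MGHS and 11.1 ± 4.37% in MGNS (SD, n = 3 each; exact permutation p = 0.1), without overlap.

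LEF1 was also lower in MGHS outside lymphocytes. Its mean was lower in MGHS in 15 of 15 classes and unnamed clusters with at least 20 nuclei per animal (clusters 13 and 17 pooled), lymphocytes included. The groups did not overlap in 8 of them. These were T or NK-like, B or plasma-like, cluster 18, macrophage or dendritic-like, basal, spinous and granular keratinocyte-like nuclei and pooled clusters 13 and 17. Of all tested genes, 23.5% in basal, 20.2% in spinous and 16.3% in granular nuclei did not overlap. The share was 19.2% in pooled clusters 13 and 17, 11.7% in T or NK-like nuclei and 12.7% in cluster 18. It was not computed for B or plasma-like or for macrophage or dendritic-like nuclei, which were not fitted. How many of all genes had a lower mean in all 15 was not counted either. None of the LEF1 differences passed edgeR's test in the classes fitted. Basal keratinocyte-like nuclei had 3.28, 3.32 and 3.78 CPM in MGHS 1 to 3 and 30.05, 31.2 and 10.3 CPM in MGNS 1 to 3 (fold change -2.63 ± 0.42 SE, edgeR adjusted p = 0.186). Cluster 13 had 7.54, 6.17 and 6.72 CPM in MGHS and 73.5, 54.7 and 20.1 CPM in MGNS (fold change -2.80 ± 0.48 SE, edgeR adjusted p = 0.143). DESeq2 called both, with adjusted p of 4.54e-06 and 0.000313, among 2.12% of all genes in basal nuclei and 1.83% in cluster 13. edgeR without a filter on low counts also called LEF1 in both sets (adjusted p = 0.0234 in basal nuclei and 0.00116 in cluster 13). That setting called 27 of 22468 genes in basal nuclei and 136 of 21090 in cluster 13. With the filter edgeR called LEF1 in basal nuclei when MGNS 3 was left out (adjusted p = 0.0342). Markers of T or NK nuclei moved with LEF1 in these sets. Of the 11 listed, 9 were in the files and none was at 0, and their summed level was 223 to 226 CPM in MGHS and 301 to 431 CPM in MGNS in basal keratinocyte-like nuclei. In cluster 13 it was 53.2 to 142 CPM in MGHS and 208 to 537 CPM in MGNS, with 9 of 9 lower in MGHS by mean in both sets. In the barcodes with under 300 genes, LEF1 stood at 23.9, 27.0 and 25.8 CPM in MGHS 1 to 3 and 87.7, 72.1 and 74.7 CPM in MGNS 1 to 3, above the basal level in each animal. The summed T or NK markers there were 233 to 282 CPM in MGHS and 472 to 668 CPM in MGNS. TCF7 there stood at 7.03 to 10.15 CPM in MGHS and 18.25 to 31.9 CPM in MGNS. Over the same 15 sets TCF7 had a lower mean in MGHS in 13 and no overlap in 5, each with MGHS lower. These were T or NK-like, B or plasma-like, granular keratinocyte-like and lymphatic endothelial-like nuclei and cluster 18. In granular nuclei its fold change was -1.98 ± 0.45 (SE, edgeR adjusted p = 0.169). Of all tested genes 15.3% did not overlap in lymphatic endothelial-like nuclei. The part of free lymphocyte RNA in the keratinocyte and stromal LEF1 and TCF7 values was not tested. MGNS 1 and MGNS 2, highest for LEF1 in basal nuclei and cluster 13, were the 2 libraries where Scrublet called no doublets. There 203 of 5033 and 606 of 8703 nuclei were removed by score. Scrublet's calls removed 609 of 6016, 470 of 6846 and 983 of 11184 in MGHS 1 to 3 and 790 of 7701 in MGNS 3. The part of remaining doublets in the LEF1 values was not tested. Over all nuclei of an animal LEF1 was 62.0, 46.3 and 36.3 CPM in MGHS and 208, 159 and 119.9 CPM in MGNS (fold change -1.64 ± 0.28 SE, edgeR adjusted p = 0.0973), and TCF7 was 12.2, 8.34 and 9.79 CPM in MGHS and 33.4, 22.8 and 18.4 CPM in MGNS (-1.18 ± 0.27 SE, edgeR adjusted p = 0.116). Over all nuclei edgeR called 0% of genes and 0 of the 9 members, DESeq2 called LEF1 and TCF7 and limma called LEF1, while 30.1% of all genes and 2 of 9 members did not overlap. DESeq2 called 7.47% and limma 1.61% of all genes there. In such whole-animal sums, fewer nuclei of a type and less RNA per nucleus cannot be told apart.

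In basal keratinocyte-like nuclei the receptors and ligases were close between the groups. LGR4 had 192, 204 and 158 CPM in MGHS 1 to 3 and 164, 238 and 170.0 CPM in MGNS 1 to 3, with a fold change of 0.08 ± 0.17 (SE; edgeR adjusted p = 0.858). ZNRF3 had 201, 218 and 136 CPM in MGHS and 174, 266 and 199 CPM in MGNS, with -0.08 ± 0.21 (SE; edgeR adjusted p = 0.879), a sign that turned with limma-voom and when MGHS 3 or MGNS 2 was left out. RNF43 had a fold change of 0.16 ± 0.22 and LGR6 of 0.11 ± 0.23 (SE; edgeR adjusted p = 0.749 and 0.840). The groups overlapped for these 4 genes. AXIN2 did not overlap, with 5.62, 6.64 and 8.22 CPM in MGHS and 3.38, 4.03 and 4.81 CPM in MGNS, from 19 to 63 UMIs per animal, and its fold change of 0.88 ± 0.31 did not pass (SE; edgeR adjusted p = 0.298). The summed fibroblast markers in basal nuclei also differed, at 118 to 260.5 CPM in MGHS and 64.9 to 79.6 CPM in MGNS, with 10 of 10 higher in MGHS by mean and none at 0, and their part in the AXIN2 values was not tested. edgeR called 0 of 8 tested members in this class, 2 (AXIN2 and LEF1) had an unadjusted p under 0.05, DESeq2 called LEF1 alone and limma called none. Of all genes tested in basal nuclei edgeR called 0.0441% and DESeq2 2.12%, 13.8% had an unadjusted p under 0.05 and 23.5% did not overlap, against 2 of 8 members.

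ZNRF3 lay higher in MGHS in some stromal sets and lower in others, and none of these differences passed the test. In cluster 13 it had 113, 103 and 84.6 CPM in MGHS 1 to 3 and 80.1, 73.6 and 79.6 CPM in MGNS 1 to 3 (fold change 0.39 ± 0.20 SE, edgeR adjusted p = 0.471). Blood endothelial-like nuclei had 75.2, 77.3 and 56.2 CPM in MGHS and 42.3, 51.2 and 48.8 CPM in MGNS (0.52 ± 0.22 SE, edgeR adjusted p = 0.491). Fibroblast-like cluster 4 ran the other way, with 44.3, 47.3 and 43.7 CPM in MGHS and 69.0, 62.8 and 71.5 CPM in MGNS (-0.55 ± 0.23 SE, edgeR adjusted p = 0.391). The groups did not overlap in any of these 3 sets, in which 18.6% (cluster 13), 15.3% (blood endothelial-like) and 17.5% (cluster 4) of all tested genes did not overlap. edgeR called 0% of genes in cluster 13 and 0% in blood endothelial-like nuclei, and 0 of the 7 and 3 tested members. In cluster 10, where 18.1% of genes did not overlap and 0.0177% were called, LEF1 and LGR4 were the 2 of 7 members without overlap. In pooled clusters 13 and 17 these shares were 19.2% and 0%, and LEF1 and ZNRF3 were the 2 of 7. LGR4 overlapped in cluster 13, with 151 to 220.2 CPM in MGHS and 176 to 194 CPM in MGNS.

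**Figure D5:**
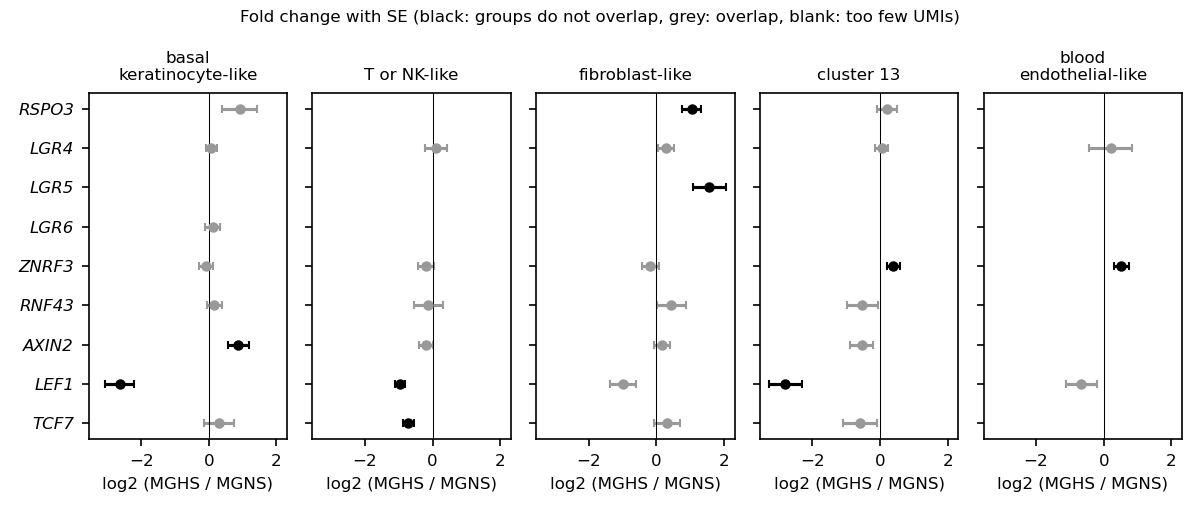
Log2 fold change of MGHS over MGNS with its SE for the 9 genes in 4 classes and cluster 13, black where the groups do not overlap, grey where they overlap and blank where a gene had too few UMIs to be tested. LEF1 lies left of 0 in all 5 panels, RSPO3 and LGR5 lie right of 0 in fibroblast-like nuclei, and LGR4 overlaps between the groups in all 5.

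The main sets of nuclei were 8, some of them nested in others (the 4 classes of the fold change plot, cluster 13, pooled clusters 13 and 17, cluster 1 and all nuclei). Over these sets edgeR called 0 of 53 tests of a member, 13 had an unadjusted p under 0.05, DESeq2 called 6 and limma called 1. Of the 96629 tests of all genes in the same sets edgeR called 0.0166%, 12.6% had an unadjusted p under 0.05, DESeq2 called 2.63% and limma 0.358%. The DESeq2 share was 1.84% in pooled clusters 13 and 17 and 0.326% in cluster 1, and 9.71% of genes in blood endothelial-like nuclei had an unadjusted p under 0.05. The 5 clusters 0, 4, 9, 10 and 18 were fitted after the data had been seen, and LEF1 in cluster 9 was the 1 call by edgeR among 77 tests in these 13 sets, of which 24 had an unadjusted p under 0.05, DESeq2 called 9 and limma 2. Over all genes in the 13 sets these shares were 0.0358% for edgeR, 11.6% at an unadjusted p under 0.05, 2.13% for DESeq2 and 0.299% for limma. The same fit in 6 more sets (clusters 12 and 17, cycling, spinous and granular keratinocyte-like and lymphatic endothelial-like nuclei) called 0 members by edgeR in 33 tests, with the smallest adjusted p at 0.161 and 6 tests at an unadjusted p under 0.05. Of all genes in these 6 sets 0.0164% were called, all of them in cycling keratinocyte-like nuclei (0.0939% there), and 10.9% had an unadjusted p under 0.05. The p-values were adjusted over genes within a set and not over sets.

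The wider Wnt pathway was read from a list of 85 further genes, of which 83 were found by symbol. edgeR called 0 of them in either direction in each of the 8 main sets, with 18 to 68 tested. From 2 to 12 genes a set had an unadjusted p under 0.05, DESeq2 called up to 7 and limma up to 2, both most over all nuclei. There the 12, 7 and 2 of 68 list genes stood beside 19.9%, 7.47% and 1.61% of all genes by the same rules. In basal nuclei 8 of 48 list genes had an unadjusted p under 0.05, beside 13.8% of all genes, and in fibroblast-like nuclei 9 of 47, beside 12.6%. Their median fold change was -0.09 to 0.19 in these sets, beside -0.01 to 0.03 for all genes tested. The ligand WNT3A averaged 45.6 ± 11.2 CPM in basal keratinocyte-like nuclei and 1.09 ± 0.64 CPM in fibroblast-like nuclei. WNT5A ran the other way, with 5.51 ± 6.41 CPM in basal, 51.5 ± 19.1 CPM in fibroblast-like nuclei and 69.9 ± 30.5 CPM in cluster 13 (SD, n = 6). RSPO2, a second R-spondin, stood at 46.9 ± 15.5 CPM in cluster 13, where its fold change was 0.75 ± 0.26 (SE; edgeR adjusted p = 0.323). ROR2, a receptor for WNT5A, averaged 358 ± 81.8 CPM in basal and 13.02 ± 6.02 CPM in T or NK-like nuclei. Its relative ROR1 averaged 719.8 ± 256 CPM in fibroblast-like and 324 ± 154 CPM in basal nuclei. The secreted inhibitor DKK2 averaged 419 ± 242 CPM in fibroblast-like and 1.26 ± 1.06 CPM in basal nuclei. TCF7L2, a relative of TCF7 and LEF1, stood at 567 ± 88.4 CPM in fibroblast-like nuclei, 578 ± 129 CPM in cluster 13 and 252 ± 25.5 CPM in basal nuclei. CSNK1A1, a kinase of the destruction complex, had means of 425 to 562 CPM in the basal, T or NK-like and fibroblast-like classes and in pooled clusters 13 and 17. WLS, which carries Wnt ligands to the cell surface, averaged 249 ± 83.1 CPM in fibroblast-like and 5.66 ± 2.19 CPM in T or NK-like nuclei. The corepressor genes TLE4 and TLE3 led their role in basal (434 ± 106 CPM of TLE4) and T or NK-like nuclei (71.8 ± 11.6 CPM of TLE3), where the receptor gene RYK had 53.6 ± 7.61 CPM. The inhibitor gene APCDD1 averaged 97.8 ± 16.97 CPM in pooled clusters 13 and 17 and 20.8 ± 9.42 CPM in cluster 13 alone.

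In fibroblast-like nuclei the list genes with the smallest p were CD44, SFRP1, RSPO2 and TNFRSF19. CD44, a cell surface receptor and Wnt target, had 418, 392.3 and 373 CPM in MGHS 1 to 3 and 901, 984 and 1253 CPM in MGNS 1 to 3 (fold change -1.39 ± 0.19 SE, edgeR adjusted p = 0.0638). DESeq2 and limma called CD44, with adjusted p of 3.21e-08 and 0.0235, and edgeR without a filter on low counts gave 0.00158. Of all genes in this class DESeq2 called 2.14% and limma 0.194%, and edgeR without the filter called 146 of 22150. SFRP1, a secreted Wnt inhibitor, had 40.9, 48.2 and 68.6 CPM in MGHS and 128.5, 204 and 107 CPM in MGNS (-1.47 ± 0.29 SE, edgeR adjusted p = 0.121), and DESeq2 called it (adjusted p = 0.00135), as did edgeR without that filter (adjusted p = 0.00818). RSPO2 had 15.1, 6.70 and 7.05 CPM in MGHS and 0, 0.95 and 3.08 CPM in MGNS (2.74 ± 0.75 SE, edgeR adjusted p = 0.224), and DESeq2 called it (adjusted p = 0.0346). TNFRSF19, a receptor and Wnt target, had 193, 203 and 184 CPM in MGHS and 102, 152 and 113 CPM in MGNS (0.67 ± 0.19 SE, edgeR adjusted p = 0.233). The groups did not overlap for these 4 genes, as for 14 of the 47 list genes tested here, while 19.5% of all genes tested in fibroblast-like nuclei did not overlap. CD44 also had the smallest p in cluster 13, with 143, 137 and 146 CPM in MGHS 1 to 3 and 278, 376 and 310.2 CPM in MGNS 1 to 3 (-1.15 ± 0.19 SE, edgeR adjusted p = 0.143). DESeq2 called it there (adjusted p = 0.000926), as did edgeR without the filter (0.0169), and limma did not (0.0880). In pooled clusters 13 and 17 CD44 came first again (-0.90 ± 0.20 SE, edgeR adjusted p = 0.162, DESeq2 0.00971). WNT5A came next in cluster 13, with 124, 83.3 and 67.2 CPM in MGHS and 44.98, 58.0 and 42.1 CPM in MGNS (0.95 ± 0.28 SE, edgeR adjusted p = 0.243), and neither DESeq2 nor limma called it. Over all nuclei the leading list genes were WNT7A (2.56 ± 0.43 SE, edgeR adjusted p = 0.0973) and PROM1 (-2.40 ± 0.50 SE, edgeR adjusted p = 0.110), which DESeq2 and limma called, then WNT10B (1.73 ± 0.41 SE) and SOSTDC1 (1.76 ± 0.46 SE), which DESeq2 called. In basal keratinocyte-like nuclei WNT10A had the smallest p (1.504 ± 0.38 SE, edgeR adjusted p = 0.232), and in T or NK-like nuclei MYC did (-1.19 ± 0.28 SE, edgeR adjusted p = 0.361, and 0.0412 without the filter).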

How the data were processed

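The 6 libraries of nuclear RNA, 1 per lamb, were used as 3 MGHS and 3 MGNS animals. The authors deposited unscaled UMI counts for every gene in every barcode. The file headers name Cell Ranger 8.0.0 as their source, whereas version 2.1.1 is given per the submitters' processing notes. The genome build and annotation were not found. The 26741 gene identifiers were matched to NCBI symbols through a RefSeq gene table, and all 26741 matched.

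Everything further was computed from those counts. Barcodes below 300 genes or above 10% mitochondrial UMIs were left out, the top 0.5% by UMIs was dropped per library, and Scrublet doublets were removed. In MGNS 1 and MGNS 2 Scrublet called none, so the highest scores were removed at 0.8% per 1000 nuclei. In all 3661 doublets were removed and 41822 of 67553 barcodes remained. Clustering (scanpy 1.11.5, 2000 variable genes without the 9 members, 30 components, 5 neighbours per library, Leiden resolution 0.8) gave 22 clusters, named from marker lists after their markers had been seen. Counts were summed per animal and set and tested with edgeR 4.0.16 (minimum count 10, TMM factors, quasi-likelihood, Benjamini-Hochberg at 0.05), with DESeq2 1.42.0 and limma 3.58.1 as alternatives. The SE was taken as the absolute fold change over the square root of F. Intervals between animals cover 3 animals a group, and droplet counts carry counting error besides.

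The members and the gene lists were chosen with earlier results of these data known. The text names the 9 members everywhere, up to 4 Wnt list genes with the smallest p in a set, the list gene of each role with the highest mean CPM in the first 4 classes, and the 5 genes most like RSPO3, LEF1, AXIN2 and LGR4, of which 1 is not reported here.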

Additional observations from a re-analysis of the deposited data

Results flagged for a closer look

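ZNRF3 differed between the groups without overlap in opposite directions among classes, and the difference between classes was not tested. The log2 ratio of mean CPM, MGHS over MGNS, was 0.55 in blood endothelial-like, 0.63 in macrophage or dendritic-like nuclei and 0.34 in pooled clusters 13 and 17, where each MGHS animal lay above each MGNS animal. The ratio was -1.04 in lymphatic endothelial-like nuclei, -0.81 in neutrophil-like nuclei and -1.55 in cluster 18, where each MGHS animal lay below each MGNS animal. Macrophage or dendritic-like nuclei had 29.2, 45.4 and 30.1 CPM in MGHS 1 to 3 and 16.4, 29.1 and 22.4 CPM in MGNS 1 to 3. Lymphatic endothelial-like nuclei had 12.1, 22.7 and 28.7 CPM in MGHS and 34.8, 43.6 and 52.1 CPM in MGNS. In cluster 18 the values rest on 2, 2 and 4 ZNRF3 UMIs in MGHS and 38, 49 and 24 UMIs in MGNS. None of the fitted differences passed edgeR's test, with adjusted p of 0.491 in blood endothelial-like nuclei, 0.462 in pooled clusters 13 and 17, 0.582 in lymphatic endothelial-like nuclei and 0.370 in cluster 18, and no fit was made over all macrophage or dendritic-like or over neutrophil-like nuclei. In these 4 fitted sets 15.3%, 19.2%, 15.3% and 12.7% of all genes did not overlap between the groups. No such share was computed for macrophage or dendritic-like or for neutrophil-like nuclei. Neutrophil-like sums were small, with 42618 UMIs of all genes from 42 nuclei in MGHS 2, where 3 UMIs would stand at 70.4 CPM. Barcodes with under 300 genes held 43.7, 38.7 and 36.9 CPM of ZNRF3 in MGHS 1 to 3 and 38.3, 59.3 and 45.6 CPM in MGNS 1 to 3, above the macrophage or dendritic-like level of the same animal in 5 of 6 animals. The part of free RNA in these values was not tested.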

How the results depend on the processing

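Over 77 gene and set pairs, 994 alternative values gave 947 on the same side of the threshold and in the same direction, 35 newly past it, 6 no longer past it and 6 of opposite sign. Only LEF1 in cluster 9 was past the threshold in the main fit. Nearly all of the 947 were thus differences that stayed short of it, and their number does not measure how stable a call is. The counts of calls given below are not among the 994 values. The 6 no longer past it were LEF1 in cluster 9 without any 1 animal. The sign of the log2 fold change turned for ZNRF3 in basal nuclei with limma-voom (0.11) and without MGHS 3 (0.083) or MGNS 2 (0.05), for TCF7 in basal nuclei without MGHS 3, for AXIN2 in cluster 10 without MGHS 2 and for LGR4 in cluster 13 without MGHS 1, and the cause was not tested. Leaving out 1 animal gave -0.21 to 0.083 for ZNRF3, -0.021 to 0.64 for TCF7, -0.032 to 0.39 for AXIN2 and -0.10 to 0.22 for LGR4 in these sets. Counts of all genes called depended on the test. DESeq2 called 289 genes in basal keratinocyte-like, 81 in T or NK-like, 265 in fibroblast-like, 218 in pooled clusters 13 and 17 and 66 in blood endothelial-like nuclei, 1408 over all nuclei, and 186, 28, 206, 117, 33, 52 and 20 in clusters 13, 1, 10, 4, 0, 9 and 18. Without a filter on low counts edgeR called 27, 110, 146, 121 and 270 in the same 5 sets, 22 over all nuclei and 136, 108, 200, 359, 179, 258 and 111 in the same clusters. limma-voom called 15 in basal and 24 in fibroblast-like nuclei and 2 in pooled clusters 13 and 17, 304 over all nuclei, 22 in cluster 10 and 33 in cluster 4. At most 5% mitochondrial UMIs gave 3 in basal nuclei and 5 in cluster 10, at least 500 genes gave 1 in cluster 1 and 5 in cluster 10, and RLE factors gave 1 in cluster 1. With the replicate number as a block edgeR called 49 in basal, 5 in fibroblast-like, 1 in pooled clusters 13 and 17 and 9 in blood endothelial-like nuclei, and 4, 0 and 20 in clusters 1, 10 and 18. LEF1 in cluster 9 had an adjusted p of 0.0353 under the block by edgeR. Deviations of same-numbered animals from their group means had correlations of -0.12, 0.08 and 0.25 in basal and -0.05, 0.01 and -0.03 in T or NK-like nuclei. The largest correlation of the same MGHS animals with a differently numbered MGNS animal was 0.30, -0.03 and 0.11 in basal nuclei. In T or NK-like nuclei it was 0.03, 0.02 and 0.07. In basal nuclei the same-number value was thus the higher for replicates 2 and 3. These values do not show whether same-numbered animals form pairs. Leaving out 1 animal gave 0 to 8 calls in basal, 1 in T or NK-like, 0 to 5 in fibroblast-like, 0 to 9 in pooled clusters 13 and 17 and 0 to 4 in blood endothelial-like nuclei, 0 to 52 over all nuclei, and 0 to 8, 0 to 4, 0 to 3, 0 to 22, 0 to 2, 0 to 32 and 0 to 7 in clusters 13, 1, 10, 4, 0, 9 and 18. The difference in UMI share, MGHS minus MGNS, ranged from -7.77 to -2.85 percentage points for RSPO3 in pooled clusters 13 and 17 and from 2.34 to 6.64 in fibroblast-like nuclei, and in T or NK-like nuclei from 0.3 to 4.73 for LEF1 and from -11.9 to -2.95 for TCF7.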
